A study of Mus musculus with 8 samples.

Results

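The genes described are the type 2 helper T cell (Th2) cytokine genes Il4, Il13 and Il5, the neighbouring Il3 and Csf2, the genes Rad50 and Kif3a that flank them on chromosome 11, and Il9 on chromosome 13. They were chosen by name from the platform annotation, and all 8 were found among the 6986 genes of the deposited value table. The study took lymphocytes positive for CD4 and CD25, which are rich in regulatory T cells (Treg), by flow cytometry from the uterus-draining para-aortic lymph nodes of mice 9.5 days into pregnancy, and hybridised their RNA to Affymetrix Mouse Gene 2.0 ST arrays. There were 8 arrays, 4 labelled IL10-/- and 4 labelled IL10+/+, each with RNA pooled from 2 to 4 mice. C57BL/6 mice served as IL10+/+, and the IL10-/- mice carried a mutation of Il10, the gene of the anti-inflammatory cytokine interleukin 10, and had been crossed back through the same C57BL/6 colony. Which part of Il10 is mutated was not stated in the labels. The labels' protocols state oxytetracycline at 2 mg/ml in the drinking water of the IL10-/- mice only, so drug and genotype cannot be told apart. IL10-/- and IL10+/+ are used throughout as the labels of the arrays.

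Il4, Il13 and Il5 encode the signature cytokines of type 2 helper T cells, which drive antibody class switching, mucus production and the recruitment of eosinophils. The 3 genes lie side by side with Rad50, and control elements inside Rad50 serve the whole group. Il3 and Csf2, a pair further along the same chromosome, encode growth factors of myeloid cells, and interleukin 3, interleukin 5 and GM-CSF (the product of Csf2) signal through a shared receptor chain encoded by Csf2rb. Regulatory T cells normally keep these cytokine genes largely silent, and conventional CD4+ T cells that carry CD25 after activation can transcribe them.

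Transcription of these cytokine genes in activated T cells depends on nuclear factor of activated T cells (NFAT), which binds the letters GGAAA. The RefSeq promoter table of GRCm38.p6 matched 7 of the 8 genes, all but Rad50. The 250 bases before the outermost start of Il4, Il13, Il5 and Csf2 are shown because Il4, Il13 and Il5 were the cytokine genes with lower means in the IL10-/- arrays and Csf2 was the gene read by probe sets that disagreed. Each is written 5′ to 3′ along the gene's own strand, with capitals marking GGAAA or its reverse complement.
Il4 (GRCm38.p6, chr11:53618666-53618915, minus strand): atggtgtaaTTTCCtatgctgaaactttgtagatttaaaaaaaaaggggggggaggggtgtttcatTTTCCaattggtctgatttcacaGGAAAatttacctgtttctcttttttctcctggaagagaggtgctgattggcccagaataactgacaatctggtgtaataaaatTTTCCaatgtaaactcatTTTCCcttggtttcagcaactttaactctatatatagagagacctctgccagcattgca
Il13 (GRCm38.p6, chr11:53634703-53634952, minus strand): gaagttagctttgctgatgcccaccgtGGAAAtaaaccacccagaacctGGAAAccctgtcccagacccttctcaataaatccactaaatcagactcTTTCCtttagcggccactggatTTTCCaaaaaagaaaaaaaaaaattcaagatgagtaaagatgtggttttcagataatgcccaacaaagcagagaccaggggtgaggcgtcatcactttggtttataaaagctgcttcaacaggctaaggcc
Il5 (GRCm38.p6, chr11:53720544-53720793, plus strand): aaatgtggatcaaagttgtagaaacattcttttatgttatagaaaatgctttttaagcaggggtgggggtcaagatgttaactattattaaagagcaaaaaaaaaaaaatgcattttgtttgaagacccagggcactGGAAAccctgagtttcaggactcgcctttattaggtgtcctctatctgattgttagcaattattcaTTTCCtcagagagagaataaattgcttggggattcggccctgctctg
Csf2 (GRCm38.p6, chr11:54249900-54250149, minus strand): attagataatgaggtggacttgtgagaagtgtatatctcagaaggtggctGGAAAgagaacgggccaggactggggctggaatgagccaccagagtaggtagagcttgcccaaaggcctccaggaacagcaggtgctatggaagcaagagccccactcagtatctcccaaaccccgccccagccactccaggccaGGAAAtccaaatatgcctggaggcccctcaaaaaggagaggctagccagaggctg
The Il4 window shown held 5 copies of the letters, the Il13 window 4, and the Il5 and Csf2 windows 2 each, counting both strands. Il4 has 2 windows in the table, and the other, chr11:53617339-53617588, held 0 copies of these letters and of those searched next. At least 5 copies were found in 0.390% of the 32851 windows of the same length, at least 4 in 1.59%, and 1 or more in 55.6%. The GATA factor letters AGATAA, searched on both strands, occurred 1 time each in the Il13 and Csf2 windows and 0 times in the windows shown for Il4 and Il5, and 9.99% of all windows held them. The AP-1 letters TGANTCA, which read the same on both strands, had 0 matches in the 4 windows shown, and 6.75% of all windows held them. No match of one motif overlapped a match of another in these windows. A match is a description of letters and not evidence of binding.

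The medians of the tested genes lay between 6.97 and 7.12 (log2) in the 8 arrays. Il10 itself was brighter in the arrays labelled IL10-/-, at 8.65 to 9.42 against 7.50 to 8.51, which is not the direction of a lost transcript, so every direction given rests on the labels alone. The arrays IL10-/- replicate 2 and IL10+/+ replicate 4 stood apart, with interquartile ranges over genes of 2.15 and 2.17 against 2.32 to 2.58 in the other 6 arrays. Of 20 T cell and Treg genes listed as a check of the sort, 6 were measured (Ptprc, Ctla4, Ikzf2, Zap70, Cd28 and Themis), with means between 9.50 and 12.7. The highest mean was that of Ptprc, which is not particular to T cells. Foxp3, Il2ra and Cd4 were not analysed here.

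None of the 8 genes differed between the groups beyond the spread of the arrays. The differences (IL10-/- minus IL10+/+, log2) ran from -0.21 for Il13 to 0.35 for Kif3a, 5 were positive and 3 negative, and the median was 0.032, against 0.0025 over all 6986 genes, of which 50.8% were positive. With limma, 0 of the 8 passed at a Benjamini-Hochberg adjusted p of 0.05, and the share of all genes that passed was 0.0286% (2 genes). That count over all genes was 1 without any of IL10-/- replicate 1 or 2 or IL10+/+ replicate 1, 2, 3 or 4, and 4 without IL10-/- replicate 3. At an unadjusted p under 0.05, 0 of the 8 passed, against 4.78% of all genes, and the groups overlapped for all 8, against 2.92% of all genes whose groups did not overlap. The 95% intervals of the 8 differences lay between -0.60 and 0.75, so for each gene a change of more than 1.69-fold on the array scale lay outside its interval. Array signals near background understate fold changes, so these limits hold for the deposited values and not for transcript numbers.

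**Figure D1:**
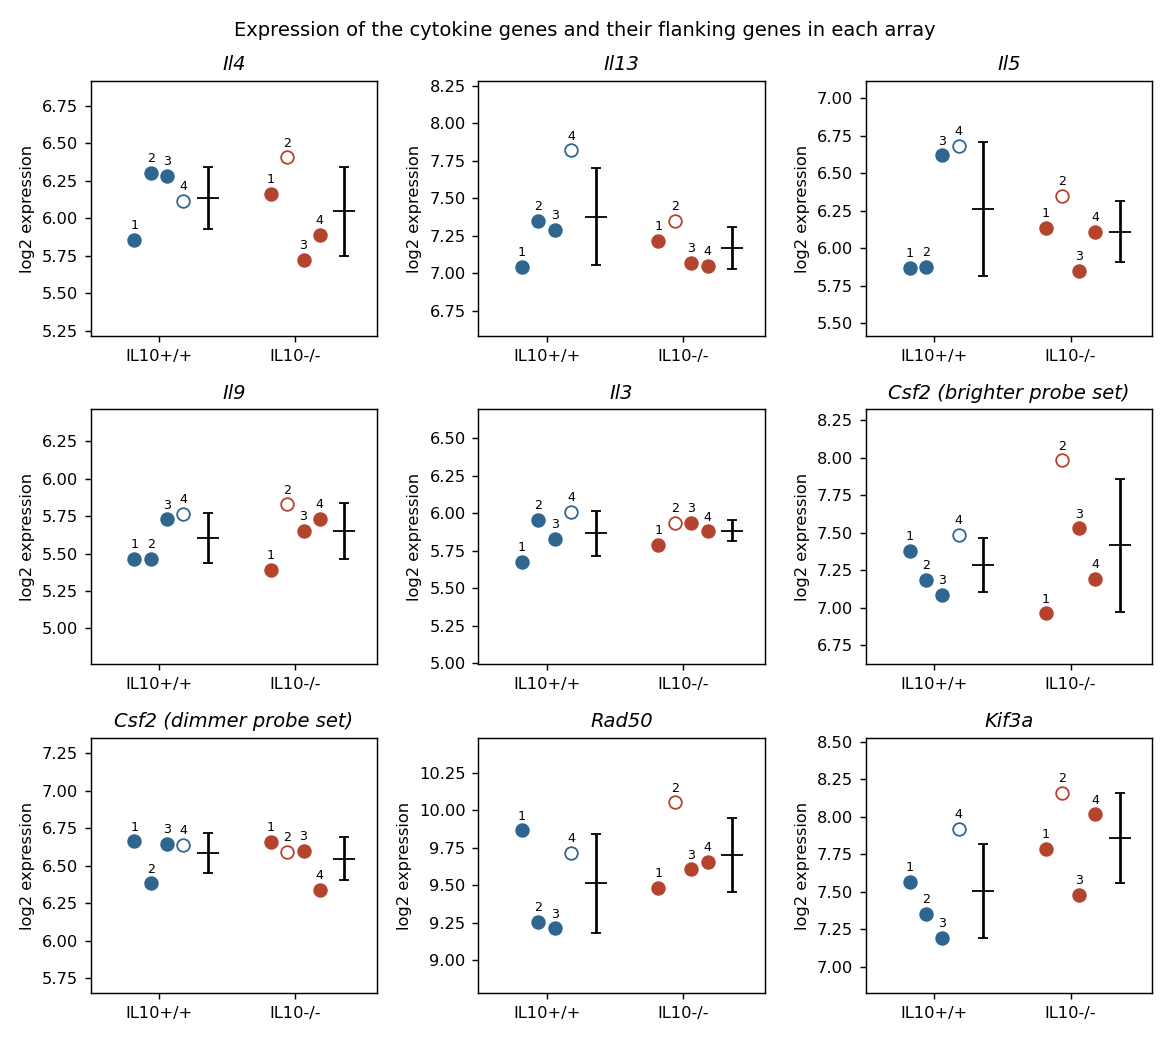
Log2 expression (vertical axes, each spanning the same width) of each gene in the 4 IL10+/+ and 4 IL10-/- arrays, with replicate numbers beside the points and the mean ± SD as bars; open circles are the arrays that stood apart, IL10-/- replicate 2 and IL10+/+ replicate 4. The groups overlap in every panel, and IL10-/- replicate 2 is the highest of its group for all 8 genes read by their brighter or only probe set.

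Il4, which encodes the cytokine that drives Th2 differentiation and the switch to immunoglobulin E, read 6.16, 6.41, 5.72 and 5.89 in IL10-/- replicates 1 to 4. In the IL10+/+ arrays it read 5.85, 6.30, 6.28 and 6.12. The highest and the lowest array were both IL10-/-, and the groups overlapped. The group means were 6.05 ± 0.30 and 6.14 ± 0.21 (SD, n = 4 each), a difference of -0.09 (SE 0.16, 95% interval -0.45 to 0.26). Neither limma (adjusted p = 0.999) nor an exact two-sided permutation of the arrays' labels (70 assignments, p = 0.657) separated the groups, and that test cannot go below 0.0286. The sign turned to 0.014 without IL10-/- replicate 3.

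Il13 encodes a cytokine that acts on epithelium and shares a receptor chain with interleukin 4. It read 7.22, 7.35, 7.07 and 7.05 in the IL10-/- arrays and 7.05, 7.35, 7.29 and 7.82 in the IL10+/+ arrays. IL10+/+ replicate 4, one of the arrays that stood apart, was the highest, and all 4 IL10-/- values lay below the IL10+/+ mean. The group means were 7.17 ± 0.14 and 7.38 ± 0.32 (SD, n = 4 each), a difference of -0.21 (SE 0.16, 95% interval -0.55 to 0.14; exact permutation p = 0.314; limma adjusted p = 0.999). Without IL10+/+ replicate 4 the difference was -0.058.

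Il5, the gene of the growth and survival factor of eosinophils, read 6.14, 6.35, 5.85 and 6.11 in the IL10-/- arrays. The IL10+/+ arrays fell into a low pair, replicates 1 and 2 at 5.87 and 5.88, and a high pair, replicates 3 and 4 at 6.62 and 6.68, with every IL10-/- value but the lowest between them. Averages were 6.11 ± 0.20 and 6.26 ± 0.45 (SD, n = 4 each), a difference of -0.15 (SE 0.20, 95% interval -0.60 to 0.30; exact permutation p = 0.429; limma adjusted p = 0.999). This was the widest interval among the 6 cytokine genes.

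Il9, which encodes a growth factor of mast cells and T cells made by helper cells that need interleukin 4 and TGF-beta to form, lies apart from the others on chromosome 13. Its values were 5.39, 5.83, 5.65 and 5.73 in IL10-/- replicates 1 to 4, and 5.46, 5.46, 5.73 and 5.76 in IL10+/+ replicates 1 to 4. Both the highest and the lowest value were from IL10-/- arrays. The means of 5.65 ± 0.19 and 5.60 ± 0.16 (SD, n = 4 each) differed by 0.047 (SE 0.13, 95% interval -0.23 to 0.32; exact permutation p = 0.800; limma adjusted p = 0.999).

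Il3, the gene of a growth factor of early myeloid cells, mast cells and basophils, had the smallest spread of the 8 genes. It read 5.78, 5.94, 5.93 and 5.88 in the IL10-/- arrays and 5.67, 5.96, 5.82 and 6.01 in the IL10+/+ arrays, whose range enclosed all of the former. Its means were 5.88 ± 0.070 and 5.87 ± 0.15 (SD, n = 4 each), and the difference of 0.017 (SE 0.10) had the narrowest 95% interval of the 8 genes, -0.21 to 0.25 (exact permutation p = 0.886; limma adjusted p = 0.999).

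Csf2, the gene of GM-CSF, which T cells use to activate macrophages, monocytes and granulocytes, was read by 2 probe sets that did not move together. The brighter, 17249636, read 6.96, 7.98, 7.53 and 7.19 in the IL10-/- arrays and 7.38, 7.19, 7.09 and 7.48 in the IL10+/+ arrays. The dimmer, 17262816, read 6.66, 6.60, 6.60 and 6.34 in IL10-/- and 6.66, 6.38, 6.64 and 6.64 in IL10+/+. By the brighter one IL10-/- replicate 2 was the highest of all arrays and IL10-/- replicate 1 the lowest, whereas the dimmer one spread over 0.321 (log2) in all, against 1.02 for the brighter. The differences were 0.13 (SE 0.20, 95% interval -0.30 to 0.57; exact permutation p = 0.600) by the brighter probe set and -0.034 (SE 0.12, 95% interval -0.30 to 0.24; exact permutation p = 0.514) by the dimmer, with means of 7.42 ± 0.44 against 7.28 ± 0.18 and of 6.55 ± 0.14 against 6.58 ± 0.13 (SD, n = 4 each). The brighter probe set's difference was -0.056 without IL10-/- replicate 2.

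Across the 8 arrays the Csf2 probe sets had a Pearson's r of 0.15 (exact permutation p = 0.707) and a Spearman's rho of -0.26 (exact permutation p = 0.536), and r was 0.45 without the 2 arrays farthest from the brighter set's median. The strand that each probe set reads is not given in the sources used here. Identifiers on this array follow runs of genes on 1 strand: for 96.5% of 5098 named probe sets, most of the 10 nearest identifiers belonged to genes on the gene's own strand. Csf2 lies on the minus strand in RefSeq. The dimmer probe set sat among 9 minus-strand and 1 plus-strand neighbours, and the brighter one, the one chosen by the rule, among 9 plus-strand and 0 minus-strand neighbours. Of the 5098 probe sets, 2.00% had all 10 neighbours on the opposite strand. Whether the brighter probe set reads Csf2 transcripts was not tested.

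Rad50 and Kif3a, widely expressed neighbours of the cytokine genes, encode a subunit of the complex that senses broken DNA ends and a motor of the kinesin family that builds cilia. Rad50 read 9.48, 10.05, 9.61 and 9.66 in the IL10-/- arrays and 9.87, 9.26, 9.21 and 9.72 in the IL10+/+ arrays. Its means were 9.70 ± 0.25 and 9.51 ± 0.33 (SD, n = 4 each), a difference of 0.19 (SE 0.18, 95% interval -0.20 to 0.57; exact permutation p = 0.400). IL10+/+ replicates 1 and 4 lay within the IL10-/- range and replicates 2 and 3 below it.

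Kif3a had the largest difference of the 8. It read 7.78, 8.16, 7.48 and 8.01 in IL10-/- and 7.57, 7.35, 7.19 and 7.92 in IL10+/+, so 3 of 4 IL10-/- arrays lay above the IL10+/+ mean by more than 0.2, with IL10+/+ replicate 4 above IL10-/- replicates 1 and 3. Averages of the groups were 7.86 ± 0.30 and 7.51 ± 0.31 (SD, n = 4 each), a difference of 0.35 or 1.28-fold (SE 0.18, 95% interval -0.052 to 0.75). It did not pass limma (unadjusted p = 0.0814, adjusted p = 0.999) or the exact permutation test (p = 0.171). Its value ran from 0.25 to 0.49 when single arrays were left out.

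**Figure D2:**
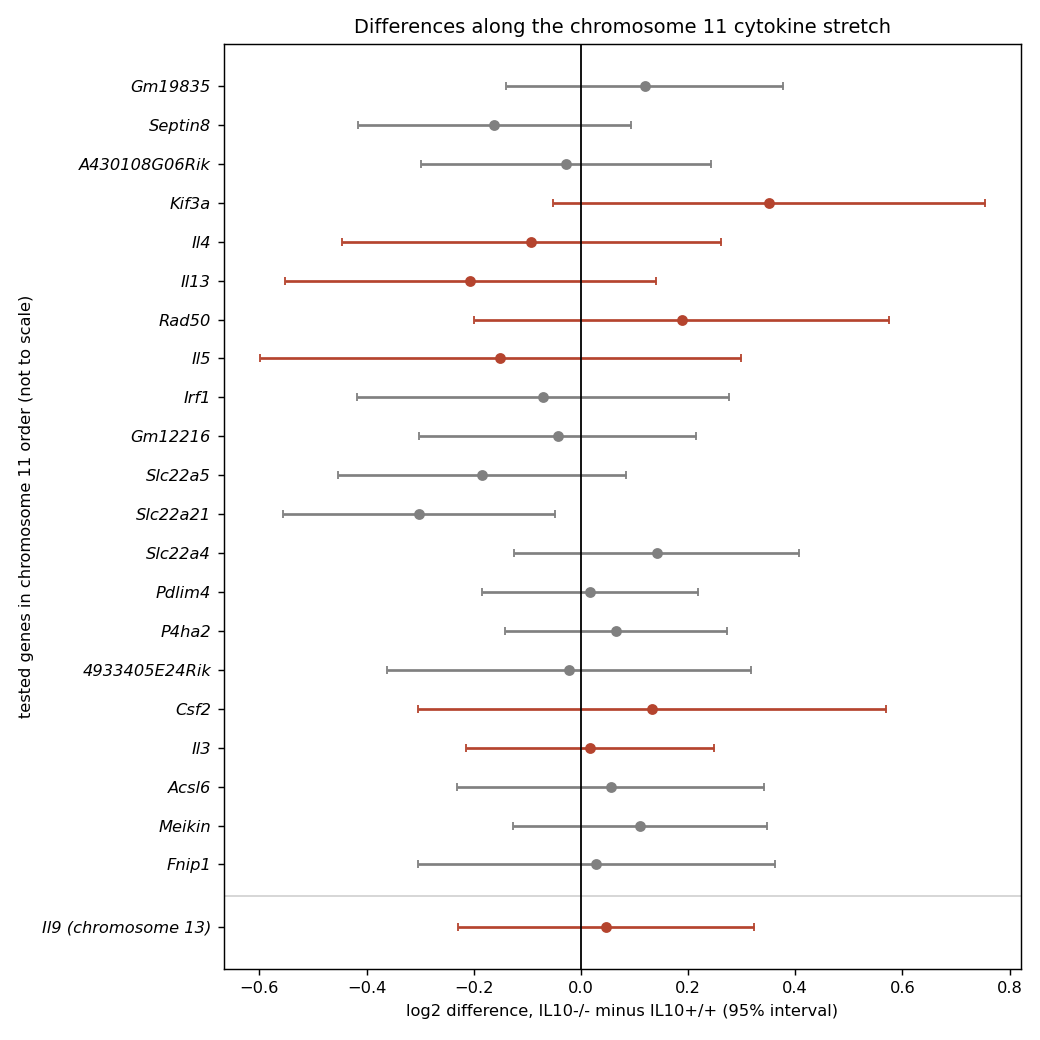
Log2 difference, IL10-/- minus IL10+/+, with its 95% interval (horizontal axis) for the tested genes in their order on chromosome 11, the 7 genes described here in red and their neighbours in grey, and Il9 below the line. Every red interval spans 0, and among the grey ones only that of Slc22a21 does not.

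The tested neighbours gave little difference either. They were 8 genes between Kif3a and Il3 and the 3 nearest on each side, together 14. Of these 7 were positive and 7 negative, with a median of -0.0023 and a range of -0.30 to 0.14, and 0 were called by limma (adjusted p from 0.873 to 0.999). Irf1, which encodes an interferon-induced transcription factor and lies next to Il5, had means of 8.92 and 8.99, a difference of -0.071 (SE 0.16). On the outer sides of the stretch, Septin8 differed by -0.16, A430108G06Rik by -0.028, Gm19835 by 0.12, Acsl6 by 0.055, Meikin by 0.11 and Fnip1 by 0.029. Between the cytokine genes, Gm12216 differed by -0.043, Pdlim4 by 0.018, P4ha2 by 0.065, 4933405E24Rik by -0.022 and Slc22a4 by 0.14.

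Groups did not overlap for 2 of the 14 neighbours, Slc22a21 and Slc22a5, against 2.92% of all genes. They are paralogous genes of the carnitine transporter family, and whether their signals are separate was not tested. Slc22a21 read 5.78, 5.41, 5.82 and 5.78 in IL10-/- against 5.98, 6.00, 5.92 and 6.10 in IL10+/+, a difference of -0.30 (SE 0.12; limma unadjusted p = 0.0239, adjusted p = 0.873). Slc22a5 read 7.80, 7.44, 7.81 and 7.80 against 7.81, 7.82, 8.12 and 7.84, a difference of -0.18 (SE 0.12; limma adjusted p = 0.999), with less than 0.01 between the nearest arrays of the groups. These values were named by the rule for neighbours and not for their size.

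How far these signals stand above background was described with the 230 olfactory receptor genes on the same arrays, which lymphocytes are not known to need. Their means over the 8 arrays had a median of 5.00 and an upper quartile of 5.82, with the brightest at 8.35. Il9, Il3, Il4 and Il5 had means over 8 arrays that 30.0%, 23.9%, 19.6% and 19.1% of the olfactory receptor genes exceeded. For Il13 and the brighter Csf2 probe set the shares were 4.35% and 3.91%, for the dimmer Csf2 probe set 10.4%, for Kif3a 3.04%, and for Rad50 0 of 230. Brightness depends on each probe set's sequence as well as on transcript number, and no detection call was used, so this is no ranking of the genes and expression of the cytokine genes is not shown.

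**Figure D3:**
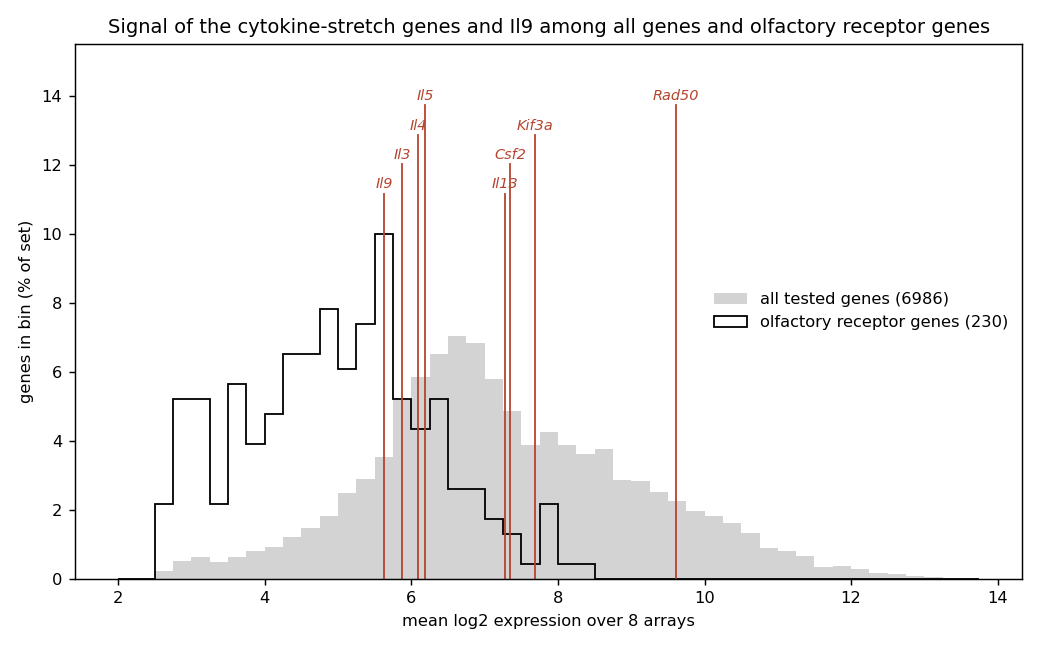
Distribution of the mean log2 expression over 8 arrays (horizontal axis) for all 6986 tested genes (grey bars) and for 230 olfactory receptor genes (black outline), each as a percentage of its set per bin, with red lines at the genes described here. Il9, Il3, Il4 and Il5 lie within the olfactory receptor distribution, Il13, Csf2 and Kif3a in its upper tail and Rad50 beyond it.

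The arrays that stood apart were often the highest of their group, for Il3 only by 5.936 against 5.932 in IL10-/- replicates 2 and 3. For Il3, Il4 and Il9, neither was among the 2 arrays farthest from the gene's median. IL10-/- replicate 2 was the highest of its group for 8 of the 8 genes, against 39.4% of all genes, and IL10+/+ replicate 4 for 6 of 8, against 35.4% of all genes. The exceptions were Il4, where IL10+/+ replicate 2 was highest, and Rad50, where IL10+/+ replicate 1 was. With both arrays left out, the differences of Il4, Il13, Il5, Csf2, Rad50 and Kif3a were -0.22, -0.12, -0.090, 0.0098, 0.14 and 0.39.

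Over the 8 arrays, 24 of the 28 pairs of the genes had a positive Pearson's r, and 0 pairs passed after Benjamini-Hochberg adjustment over the 28 (lowest adjusted p = 0.306 by Pearson and 0.343 by Spearman, exact permutation). The highest was between Csf2, read by its brighter probe set, and Rad50, with r = 0.78 (exact permutation p = 0.0196) and rho = 0.76 (p = 0.0368). That r was 0.69 without the 2 arrays farthest from the Csf2 median. Whether this probe set reads Csf2 transcripts was not tested, and the dimmer one was not correlated with the other genes. Rad50 and Kif3a had r = 0.76 (exact permutation p = 0.0295) and rho = 0.79 (p = 0.0279), and 0.42 without 2 arrays. Il5 and Il13 had r = 0.72 (exact permutation p = 0.0328) and rho = 0.64 (p = 0.0962), and r was 0.42 without 2 arrays. Leaving out the farthest arrays also narrows the range of values, so how far both relations rest on those arrays was not tested. Il4 and Il13, which are direct neighbours, had r = 0.52 (exact permutation p = 0.187, adjusted p = 0.576) and rho = 0.67 (p = 0.0831, adjusted p = 0.449), and 0.23 without 2 arrays. In the 6 arrays without those that stood apart their r was 0.95, and that of Il13 and Rad50 was -0.93, against -0.011 in all 8. These were the highest and the lowest of the 28 pairs in those 6 arrays, and they were not tested. There r was 0.54 for Csf2 and Rad50, 0.59 for Rad50 and Kif3a, and 0.39 for Il5 and Il13.

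**Figure D4:**
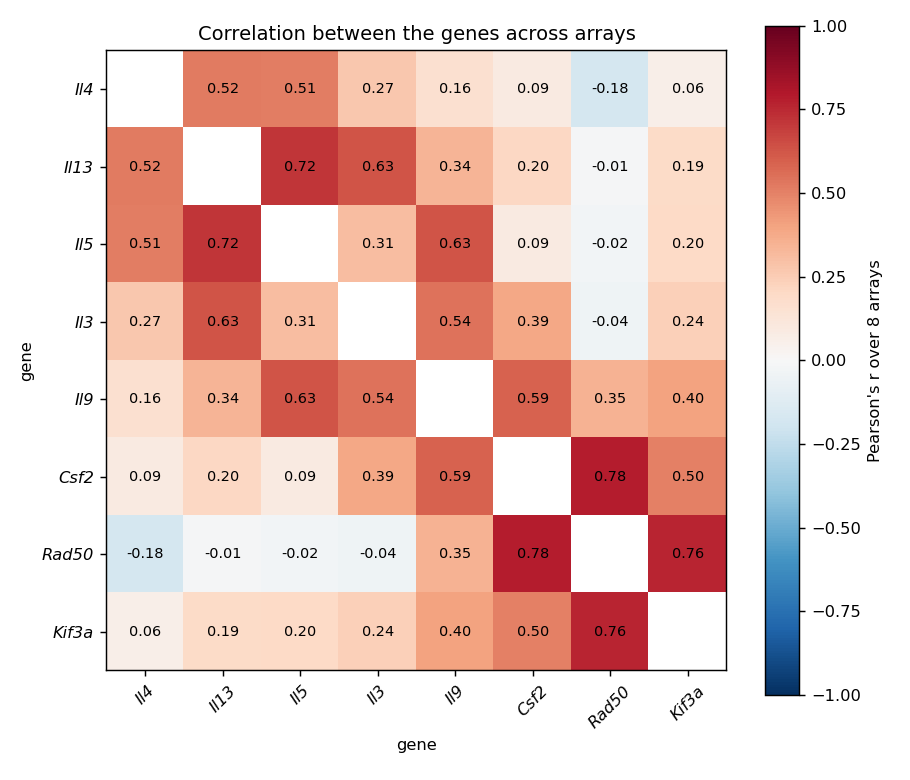
Pearson's r over the 8 arrays for each of the 28 pairs of the genes (rows and columns; red positive, blue negative). The Th2 cytokine genes Il4, Il13 and Il5 have r of 0.51 to 0.72 with each other and of -0.18 to -0.011 with Rad50. Csf2 (brighter probe set), Rad50 and Kif3a have r of 0.50 to 0.78 with each other. Other pairs are as high, such as Il5 and Il9 (0.63), Il3 and Il13 (0.63) and Csf2 and Il9 (0.59). Without the arrays that stood apart, r of Csf2 and Kif3a was -0.13. After adjustment 0 pairs passed.

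The named genes whose pattern was most like each gene's, by Pearson's r over the 8 arrays, were chosen from 5460 genes. They were Ddx4 (0.96) and Calcoco2 (0.95) for Il4, Ahctf1 (0.98) and Fam240b (0.97) for Il13, and Sphkap (0.97) and Gsdmc2 (0.96) for Il5. For Il9 they were Unc80 (0.98) and Adcy2 (0.95), and for Il3 Mfsd2b (0.97) and Dytn (0.96). For Csf2, by its brighter probe set only, they were Kcnma1 (0.98) and Mrpl32 (0.95). Rad50 was nearest to Ggnbp2 (0.97) and Ebag9 (0.97), and Kif3a to Camsap2 (0.98) and N4bp3 (0.97). Between 6 and 60 of the 5460 genes had r over 0.9 with each of the 8, so the genes named are not the only ones with such values. These likenesses were not tested.

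Of 21 receptor and signalling genes for these cytokines, 9 were measured, 5 were positive and 4 negative, and 0 passed the test in either direction, with a median of 0.0094. The shared chain gene Csf2rb had means of 6.94 ± 0.19 and 6.93 ± 0.083, and the interleukin 3-specific chain gene Csf2rb2 had means of 6.21 ± 0.13 and 6.16 ± 0.13 (SD, n = 4 each). The private chain genes Il3ra and Il9r differed by -0.036 and 0.0094. Stat6, the gene of the transcription factor that carries the interleukin 4 signal, read 9.08 to 9.70 in IL10-/- and 9.45 to 9.90 in IL10+/+, a difference of -0.22 (SE 0.16). Socs2, a feedback inhibitor gene, differed by 0.56 (SE 0.27, limma adjusted p = 0.999 for both genes). That value is of its brightest probe set, and the mean of its probe sets differed by 0.26 (SE 0.16).

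Among 45 genes of transcription factors and chromatin regulators that act on the cytokine genes, 11 were measured, 4 positive and 7 negative, and 0 passed, with a median of -0.071. Batf3 had the smallest p of these, with a difference of 0.28 (SE 0.13; limma adjusted p = 0.999). Irf4 and Batf, which Th2 and interleukin 9-producing cells need, differed by -0.10 and 0.13. Of 28 other genes of Th2 cells, 9 were measured, 7 positive and 2 negative, with a median of 0.13, and 0 passed. Il17rb, which encodes the receptor for the Th2-inducing cytokine interleukin 25, read 8.46, 8.09, 8.42 and 8.27 in IL10-/- against 9.36, 9.12, 9.19 and 8.28 in IL10+/+. Its difference was -0.68 (SE 0.21, limma adjusted p = 0.742), and -0.92 to -0.56 when single arrays were left out. The lowest limma adjusted p of all settings, 0.0581, came without IL10+/+ replicate 4, the single array of its group within the IL10-/- range. Leaving out any other single array gave a limma adjusted p of 0.657 or more, and leaving out both arrays that stood apart gave 0.110. The calcium pump gene Atp2b4 differed by 0.59 (adjusted p = 0.524) without overlap, and Il25 itself by 0.010.

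Mast cells, basophils and eosinophils also transcribe Il4, Il13, Il5 and Il3, and their markers varied widely between arrays. Of 25 such genes 10 were measured, 3 positive and 7 negative, with a median of -0.12 and 0 past the test. Their summed signal (log2 of the sum) ran from 9.85 to 10.88 in IL10-/- and from 10.05 to 11.45 in IL10+/+. The mast cell protease gene Mcpt4 read 7.49, 9.70, 9.28 and 7.17 in IL10-/- and 10.08, 8.07, 8.86 and 9.29 in IL10+/+, a spread over the 8 arrays wider than that of any of the cytokine genes. Cma1, another mast cell protease gene, differed by -0.55 (SE 0.38) and the immunoglobulin E receptor gene Fcer1a by -0.28 (SE 0.23). The highest Mcpt4 array, IL10+/+ replicate 1, held the lowest IL10+/+ values of Il4, Il13, Il5 and Il3, whereas the highest Mcpt4 array among the IL10-/- arrays, replicate 2, which stood apart, held the highest IL10-/- values of the same 4 genes. The part of these cells in the cytokine values was not tested, and in such sorted bulk samples fewer cells of a type and less RNA per cell cannot be told apart.

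For the other cell types that such a sort can hold, 0 of the measured markers passed. The 6 of 15 measured B cell genes were all positive (median 0.14; Cd79b 0.27, Vpreb3 0.24), with summed signals of 9.81 to 10.15 in IL10-/- and 9.70 to 9.98 in IL10+/+. The 7 of 15 measured myeloid genes, 3 positive and 4 negative, had a median of -0.035 (Lyz1 -0.42, Cxcr2 -0.19, Ly6c2 0.23). Their sums were 10.72 to 11.17 and 10.55 to 11.23. The 4 of 11 measured genes of type 2 innate lymphoid cells, which make interleukin 5 and interleukin 13, were all negative (median -0.16, Il7r -0.12 beside Il17rb). Their sums were 11.76 to 12.00 and 11.97 to 12.17, and Il17rb is also on the Th2 list. Il7r, with means of 11.60 and 11.71, was the brightest of the 4 and made up most of those sums. The T cell genes, 1 positive and 5 negative, had a median of -0.10 (Themis 0.21, Ikzf2 -0.19), with sums of 13.60 to 13.86 and 13.82 to 13.91. Ptprc, with means of 12.61 and 12.70, was the brightest gene in those sums.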

How the data were processed

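Per the series' design text, the authors made the deposited log2 values in Partek, where RMA corrected the background, probes were corrected for GC content, and a probe set's probes were averaged. Affymetrix Expression Console is a further tool of the submitters' processing notes. Neither versions nor a genome build were given in the sources used here. RNA was amplified before labelling. The table held 16378 probe sets, of which 7358 had 1 gene in the platform annotation, 456 several and 8564 none. Symbols were updated to RefSeq through Entrez identifiers (7310 matched). For 284 genes with several probe sets the brightest on average was used, leaving 6986 genes, with no filter on signal.

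Groups came from the sample titles. Differences, standard errors, 95% intervals and p-values came from limma 3.58.1 (lmFit and eBayes) in R 4.3.3, fitted over all genes and adjusted by the Benjamini-Hochberg method, with exact two-sided permutation tests over the 70 assignments of arrays for single genes. The fit was tested on simulated data. The number of arrays limits the precision. The alternatives were other normalizations, a filter on dim genes, other probe set rules, other variance settings, array weights, a replicate block and arrays left out. The genes described and all lists were chosen with earlier results of these data known. Genes were named by rule: all 8 genes, the 2 of smallest p in each list, the chromosome 11 neighbours and the 2 of most similar pattern per gene; further genes were chosen after their values were seen.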

Additional observations from a re-analysis of the deposited data

Results flagged for a closer look

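Groups of 4 arrays were examined for the probe sets of the 8 genes, the list genes named by rule and the chromosome 11 neighbours. In 7 of these 74 groups, 1 array lay far from the other 3. Chance gives about 1 in 20. Of the probe sets of the 8 genes, 1 was among them: the dimmer Csf2 probe set at 6.38 in IL10+/+ replicate 2, against 6.64 to 6.66 in the other 3. Stat6 read 9.08 in IL10-/- replicate 2, against 9.68 to 9.70, and Socs2 read 9.03 in IL10-/- replicate 3, against 8.35 to 8.44. In IL10-/- replicate 2, Slc22a5 read 7.44 against 7.80 to 7.81 and Slc22a21 read 5.41 against 5.78 to 5.82. Slc22a5 also read 8.12 in IL10+/+ replicate 3 against 7.81 to 7.84, and P4ha2 read 6.47 in IL10+/+ replicate 2 against 6.29 to 6.32.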

How the results depend on the processing

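None of the 8 genes passed the threshold under any of the 18 other settings or, for Csf2, by its dimmer probe set (lowest adjusted p = 0.682). Il5, Il13, Rad50 and Kif3a kept their sign throughout. Il3 turned to -7.4e-05 with arrays centred on their median, Csf2 to -0.034 by the dimmer probe set (chosen after seeing the data) and Il9 to -0.0073 with array weights. Leaving out single arrays gave -0.047 to 0.065 for Il3, -0.21 to 0.014 for Il4, -0.056 to 0.28 for Csf2 and -0.013 to 0.13 for Il9. The cause was not tested. Il3, Il4 and Il9 fell below the filter on dim genes and had no value there. Among neighbours, Pdlim4 turned to -0.010 with array weights, -0.0060 with quantile normalization and -0.0022 without both arrays that stood apart, and 4933405E24Rik to 0.0023 with array weights. Single arrays left out gave -0.016 to 0.043 for Pdlim4, -0.13 to 0.11 for 4933405E24Rik, -0.094 to 0.045 for A430108G06Rik, -0.20 to 0.018 for Irf1, -0.10 to 0.025 for Gm12216, -0.019 to 0.15 for Acsl6 and -0.062 to 0.14 for Fnip1. Over all genes, 2 passed, and 1 with array weights, centred arrays, the equal-variance test, the fit on all probe sets, the replicate block or without both arrays that stood apart. The count was 3 with the trend and robust variance settings of eBayes, and 1 to 4 with single arrays left out. Nothing in the labels says that the replicate numbers pair the arrays. Deviations of arrays with the same number correlated at -0.32 to 0.053, and the block changed no call among the 8 genes. Signals of Il3, Il4, Il5 and Il9 near those of olfactory receptor genes limit what could be detected for them.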
